A study of Arabidopsis thaliana with 20 samples.

Results

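The change in gene expression between 5 d and 15 d was measured in first leaf pairs of an Arabidopsis thaliana line that carries mutations in 3 MYB genes, the myb3r1 myb3r3 myb3r5 triple mutant. The comparison was defined by genotype and age, with earlier results of these data known. It uses 5 of the 20 arrays of the study, 2 from leaves of 5 d and 3 from leaves of 15 d. Wild-type (Columbia) leaves of the same ages, with 2 and 3 arrays, serve as the reference, and the other 10 arrays, from whole seedlings, are not analysed here. Leaves of both genotypes came from plants grown on Murashige and Skoog agar with sucrose in constant light. Nothing in the labels says that the replicates of a group came from separate plants or cultures, so p-values measure the spread between these samples, which may be technical. The mutant allele names are not given in the labels, and no MYB3R gene had a named probe set, so genotypes are as labelled.

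Young Arabidopsis leaf primordia consist of dividing cells. As the leaf matures, cells leave the mitotic cycle, many of them go on to copy their DNA without dividing, and the blade expands, becomes a source of sugar and at length begins to age. MYB3R proteins bind an element in the promoters of genes expressed at the transition from G2 to mitosis, and MYB3R1, MYB3R3 and MYB3R5 are known to act there as repressors, MYB3R3 and MYB3R5 mainly so. The comparison asks which changes of leaf maturation still take place without these 3 genes.

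Of 16566 probe sets tested, 8769 (52.9%) changed with leaf age in the triple mutant at an adjusted p under 0.05, and 4285 (25.9%) rose while 4484 (27.1%) fell. The tests were made with limma on log2 signal after values under a floor of 33 had been set to 33, and p-values were adjusted over all probe sets by the Benjamini-Hochberg method. Changes of at least 2-fold were called for 7451 probe sets (45.0%), of which 3690 rose (22.3%) and 3761 fell (22.7%). The largest changes were more often rises: 981 probe sets rose and 526 fell by at least 8-fold, and 146 rose and 47 fell by at least 32-fold. The median change over all tested probe sets was -0.05 on the log2 scale. In whole leaves, fewer cells of a type and less RNA per cell cannot be told apart.

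A pair of the 5 mutant arrays stood apart from its group, and calls that change without them are given where the gene is described. At 15 d, array 1 correlated with arrays 2 and 3 at 0.867 and 0.864 across tested probe sets. Arrays 2 and 3 correlated at 0.972 with each other, and array 1 correlated at 0.956 with wild-type array 1 of that age. That wild-type array stood apart to a lesser degree, at 0.931 and 0.905 with wild-type arrays 2 and 3, which correlated at 0.974 with each other. At 5 d, array 2 was higher for genes of older leaves: the 1115 probe sets that rose at least 8-fold in wild type were higher than the wild-type 5 d mean by a median of 1.15 on the log2 scale on array 2, and by a median of 0.00 on array 1. Without 5 d array 2 and 15 d array 1 together, 8031 probe sets were called in the triple mutant, 3992 of them higher and 4039 lower, and 7310 of these were among the 8769.

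The genes with the largest rises were at or just above the floor on 5 d array 1 and among the brighter signals at 15 d. OCT1, which encodes an organic cation and carnitine transporter, gave signals of 1.76 and 81.5 on the 5 d arrays and 2835, 5151 and 6458 on the 15 d arrays. Its log2 change was 6.46 ± 0.70 (SE, 2 against 3 arrays, limma adjusted p = 1.3e-04). SWEET11, a sucrose exporter that loads the phloem of source leaves, gave 37.4 and 675 at 5 d and 11490, 7819 and 8042 at 15 d, a log2 change of 5.82 ± 0.93 (limma adjusted p = 8.9e-04). For both genes the 3 mature arrays lay far above the young ones, and 5 d array 2 was the higher of the young pair. The other 8 of the 10 largest rises were AT4G12490, AT5G20790, AT1G65500, AT5G39520, AT1G23130, AT3G18250, AT2G43620 and AT1G52200, with log2 changes from 5.72 to 6.24. All 10 also rose in wild type, by 4.99 to 8.87 on the log2 scale, and no difference between genotypes was called for any of them. AT1G23130 shows how 5 d array 2 bears on the size of these rises, with signals of 11.5 and 1184 on the young arrays and 14990, 12560 and 10200 on the mature ones. Among probe sets with no gene name, the largest rises were 6.78 and 6.62 on the log2 scale.

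The largest falls ran from high signals at 5 d to the floor at 15 d. AT4G29030 gave 8960 and 8243 at 5 d and 7.28 or less on every 15 d array, at least 260-fold lower (limma adjusted p = 2.8e-07). AT1G73620 fell at least 106-fold, from 3711 and 4017 to 28.4, 19.5 and 44.2, and AT1G62500 fell at least 96.0-fold. ATLP-1, which encodes a thaumatin-like protein, gave 3560 and 3357 at 5 d and 44.1, 12.2 and 13.6 at 15 d, at least 95.1-fold lower (limma adjusted p = 1.7e-05). In each of these 4 genes the young arrays lay close together and every mature array was at or just above the floor. Values set to the floor show no spread, so the p-values of such genes can overstate the precision. AT4G38660, AT2G33850, AT5G45670, AT2G28790, AT5G62210 and AT5G16250 completed the 10 largest falls, with log2 changes from -6.54 to -5.82. All 10 fell in wild type too, although AT5G62210 did so by -2.67 against -5.94 in the mutant, a difference that was not called (limma adjusted p = 0.35). The largest falls of probe sets with no gene name were -7.41 and -6.73 on the log2 scale, and the call of the second of them was lost without 5 d array 1 (limma adjusted p = 0.09), 5 d array 2 (0.082), 15 d array 2 (0.052) or 15 d array 3 (0.053).

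**Figure D1:**
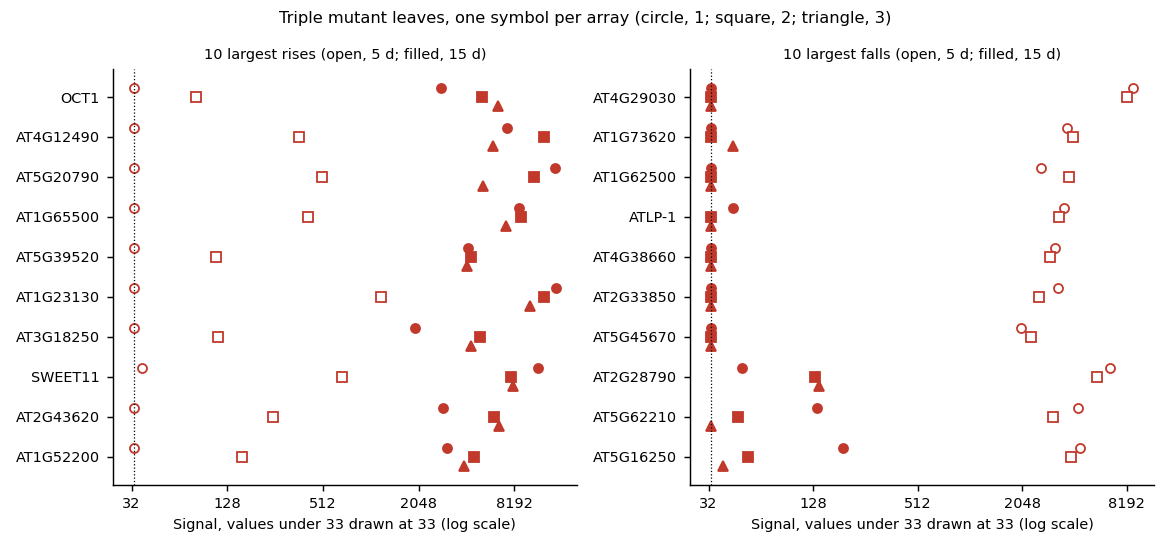
Signal on each of the 5 triple mutant arrays (log scale, values under 33 drawn at 33) for the 10 largest rises and the 10 largest falls. Open symbols are 5 d and filled symbols 15 d, with a circle, square or triangle for array 1, 2 or 3; in all 10 rises the open square, 5 d array 2, lies to the right of the open circle.

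Some probe sets went from under the floor on both young arrays to more than 4 times the floor on all mature arrays. There were 138 such probe sets in the triple mutant and 528 in wild type, with 68 in common, but the mutant number was 619 when 5 d array 2 was left out and 156 when 5 d array 1 was left out. The opposite pattern, from above 4 times the floor on both young arrays to the floor on every mature array, was met by 118 probe sets in the mutant and 155 in wild type, with 63 in common. That mutant number was 143 without 5 d array 1 and 139 without 5 d array 2.

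Most of the changes seen in wild type were also called in the triple mutant. In wild type 8651 probe sets (52.2%) were called, 4131 higher (24.9%) and 4520 lower (27.3%), and 7501 of them by at least 2-fold (45.3%), 3659 higher (22.1%) and 3842 lower (23.2%). Of the 4131 that rose in wild type, 3448 (83.5%) rose in the mutant, 4 fell and 679 were not called. Of the 4520 that fell in wild type, 3697 (81.8%) fell in the mutant, 1 rose and 822 were not called. The sign alone was shared by 98.1% of the wild-type rises and 99.0% of the wild-type falls. Among the 1115 rises and 543 falls of at least 8-fold in wild type, 95.5% and 94.8% were called the same way in the mutant. When the pair of arrays that stood apart was left out, 3287 of 4458 wild-type rises and 3254 of 4749 wild-type falls were called the same way. The age comparisons of the 2 genotypes share no arrays, but they share 1 estimate of the spread, and arrays of the same number and age deviated together.

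The median change of the wild-type rises was 1.97 in wild type and 1.78 in the mutant on the log2 scale, and that of the wild-type falls was -1.68 and -1.52. Since these probe sets were picked by their change in wild type, the lower mutant medians are a description only. For 559 of the rises (13.5%) and 953 of the falls (21.1%) the 95% interval of the difference between genotypes lay within 1 log2 unit of 0. For the remainder the interval reached beyond a 2-fold difference in at least 1 direction. In the other direction, 80.5% of the 4285 mutant rises and 82.4% of the 4484 mutant falls were called the same way in wild type. Across the 16566 probe sets the changes in the genotypes correlated with a Pearson r of 0.911, which is a description over features that are not independent.

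**Figure D2:**
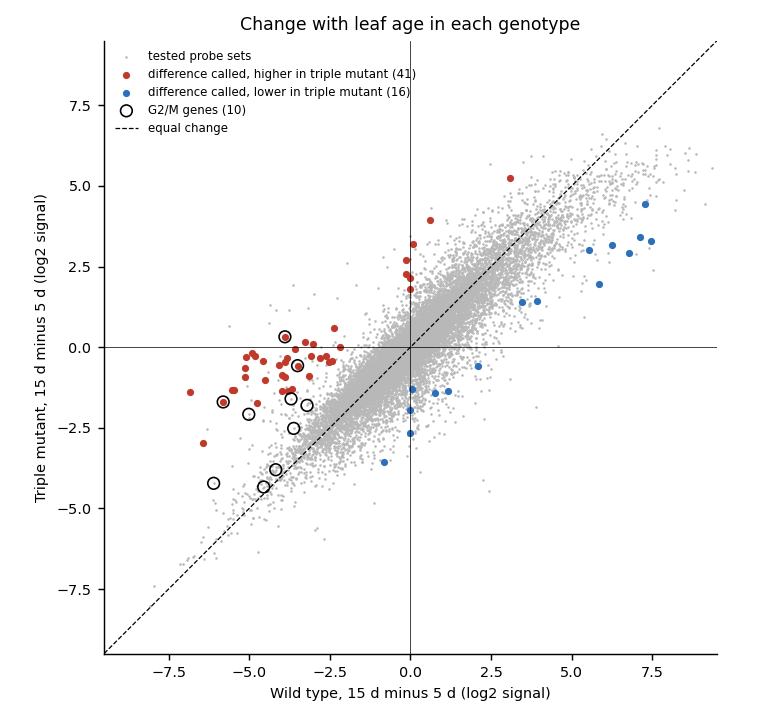
Change from 5 d to 15 d (log2 signal) in wild type on the x axis and in the triple mutant on the y axis for 16566 probe sets. Red and blue points are the 41 and 16 probe sets whose change was called higher or lower in the mutant, circles are the 10 G2/M genes, and the dashed line marks equal change; most points follow the line, and red points cluster where wild type fell.

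Most tested genes of DNA replication fell without the 3 MYB3R genes. Their list, like the others made by symbol, was put together after some values had been seen, so its counts are a description. Of the 12 tested genes for replication and histones, 11 fell and 1 rose, against 27.1% and 25.9% of all probe sets, with a median log2 change of -2.20. PRL, the MCM7 subunit of the replicative helicase, gave 1651 and 1669 at 5 d and 82.9, 96.3 and 114 at 15 d, a log2 change of -4.10 ± 0.22 (limma adjusted p = 7.9e-06), and it fell by 3.54 in wild type. ASF1B, a histone chaperone, fell from 1029 and 786 to 96.6, 98.9 and 52.4. HTB1, a histone H2B, fell from 3704 and 2816 to 264, 350 and 476. In these genes the ages did not overlap, and the 3 mature arrays lay within 2-fold of each other. ICU2, the catalytic subunit of DNA polymerase alpha, fell by 2.04 on the log2 scale in the mutant and 1.29 in wild type. The exception was SKP2A, an F-box protein that targets cell cycle factors for breakdown, which rose from 302 and 451 to 1046, 1292 and 1463 (log2 change 1.76 ± 0.32, limma adjusted p = 0.0016). Without 5 d array 1, 7 of the 12 fell.

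Genes of DNA repair, chromosomes and the spindle fell in part. Of 13 chromosome and spindle genes outside the G2/M list, 7 fell, where 27.1% of all probe sets did, and 6 were not called. Their median was -0.86. TOPII, DNA topoisomerase II, fell at least 19.8-fold from 917 and 538 to 40.8, 22.7 and 13.2. HTR12, the centromeric histone H3, gave 385 and 207 at 5 d and was at or just above the floor at 15 d, at least 8.53-fold lower. Haspin, a kinase of histone H3 in mitosis, fell at least 7.32-fold, and WYR, an inner centromere protein, fell by 1.76 on the log2 scale. KINESIN-13A and ATMAP65-6 were among those not called, with log2 changes of 0.12 and -0.26. Only 4 of the 13 fell without 5 d array 1. Of 19 repair and recombination genes 11 fell and 1 rose. ATMND1, a recombination factor, fell from 279 and 236 to 35.0, 39.1 and 36.2, and the rise of ATLIG4, the ligase of end joining (log2 change 1.01, limma adjusted p = 0.017), was lost without 5 d array 2 (0.11), 15 d array 3 (0.05) or both arrays that stood apart (0.085). Each of TOPII, HTR12, Haspin and ATMND1 also fell in wild type.

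The 10 tested G2/M genes, the class on which MYB3R repressors are known to act, had smaller changes in the mutant than in wild type, although few of the differences were called. In the mutant 8 fell and 2 were not called, with a median log2 change of -1.94, where 27.1% of all probe sets fell. In wild type all 10 fell, with a median of -4.04, where 27.3% of all probe sets fell. In mature wild-type leaves, each of them except BUB3.1 and 3xHMG-box2 was under the floor on at least 1 array. The difference between genotypes was called for AUR2, 3xHMG-box1 and KINESIN-12B. AUR2, an Aurora kinase of the mitotic spindle and cell plate, gave 2288 and 2176 at 5 d and 734, 598 and 739 at 15 d in the mutant. It fell by 1.70 ± 0.21 on the log2 scale there (limma adjusted p = 2.1e-04), against 5.81 in wild type, where the mature arrays read 40.8, 12.9 and 15.1. The mutant arrays of 15 d lay between the young arrays and the wild-type mature arrays without overlap. The changes differed by 4.11 ± 0.29 (limma adjusted p = 0.0014).

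AUR1, a close relative of AUR2, fell by 2.08 ± 0.43 in the mutant (2569 and 2040 to 607, 535 and 488) and by 5.01 in wild type. The difference of 2.93 was not called (limma adjusted p = 0.14) but was called with arrays of the same number and age paired as a block (0.045), with the floor at 66 (0.04) and without wild-type 15 d array 1 (0.015). AUR3, the Aurora kinase of centromeres, fell to the floor on all 3 mature mutant arrays, at least 13.9-fold, and its change differed from wild type by 0.38 (limma adjusted p = 0.92). AT1G63100 likewise fell to near the floor, from 580 and 939 to 44.7, 21.2 and 32.01, with a difference of 0.21 (limma adjusted p = 0.95). Both genes reach the floor in mature leaves of both genotypes, so these differences cannot show whether the genotypes differ at 15 d.

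The high-mobility-group genes of mitotic chromosomes diverged from each other. 3xHMG-box2 fell from 2175 and 1964 to 234, 70.0 and 82.8, a log2 change of -4.22 ± 0.52. 3xHMG-box1 gave 252 and 244 at 5 d and 265, 430 and 259 at 15 d, a change of 0.32 ± 0.48 that was not called (limma adjusted p = 0.6). In wild type it fell by 3.89, and the changes differed by 4.21 (limma adjusted p = 0.049). Its young wild-type arrays, 997 and 294, were themselves unlike each other. KINESIN-12B, a motor of the phragmoplast that builds the new cell wall, gave 428 and 436 at 5 d and 300, 264 and 308 at 15 d. Every mature array was lower than the young ones, but the change of -0.57 ± 0.24 was not called (limma adjusted p = 0.074) except with the floor at 66 (0.026) or after quantile normalization (0.032), and it differed from the wild-type fall of 3.50 by 2.93 (limma adjusted p = 0.012). The difference was no longer called for KINESIN-12B without wild-type 5 d array 1 (0.067), wild-type 5 d array 2 (0.082), mutant 5 d array 2 (0.086) or both arrays that stood apart (0.058). For 3xHMG-box1 it was lost under 13 of the alternatives, which include leaving out any of the 10 arrays other than wild-type 5 d array 2 and mutant 15 d array 1, with adjusted p-values up to 0.27.

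The spindle checkpoint genes fell in the mutant to levels above the floor. BUB3.1 fell from 1286 and 1187 to 185, 249 and 217 (log2 change -2.52 ± 0.24), BUB3.2 from 314 and 224 to 80.4, 86.8 and 62.6, and BUBR1 from 825 and 526 to 139, 286 and 256. The ages did not overlap in any of the 3. None of their differences from wild type was called, with limma adjusted p-values of 0.42, 0.29 and 0.22, although that of BUBR1 was called without mutant 15 d array 1 (0.019). The call of BUBR1 in the mutant (limma adjusted p = 0.0043) was lost without the floor (0.086) and without 5 d array 1 (0.052), which left 7 of the 10 G2/M genes falling.

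**Figure D3:**
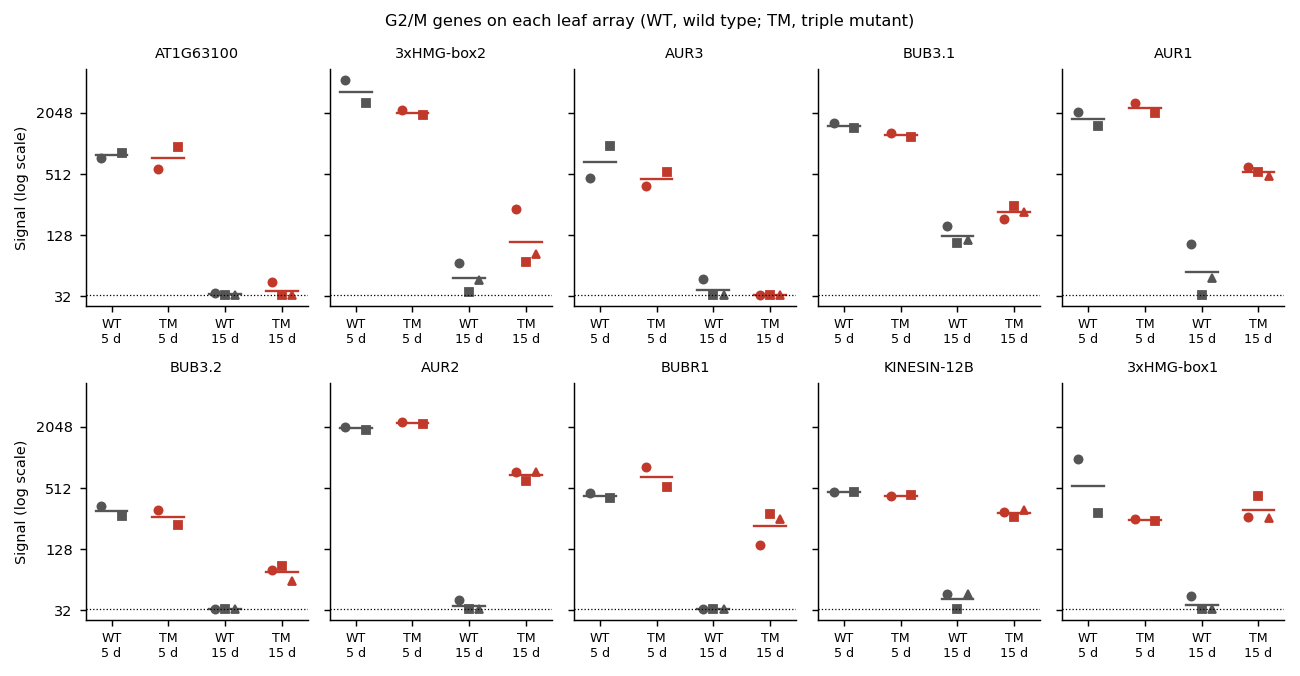
Signal of the 10 G2/M genes on each leaf array (log scale, values under 33 drawn at 33, dotted line), with wild type in grey and the triple mutant in red. Symbols mark arrays 1 (circle), 2 (square) and 3 (triangle) and bars the group means of log2 signal; AUR2, KINESIN-12B and 3xHMG-box1 stay well above the floor in mature mutant leaves, while AUR3 and AT1G63100 reach it in both genotypes.

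The difference between the age changes of the genotypes was called for 57 of 16566 probe sets (0.344%), 41 higher in the mutant (0.247%) and 16 lower (0.0966%), and 1208 passed an unadjusted p under 0.05 in limma. With arrays of the same number and age paired as a replicate block, 181 were called, 75 higher and 106 lower, and all 57 were among them. The direction also depended on single arrays. Without mutant 15 d array 1, 147 were higher and 350 lower, but without array 2 or 3 of that group 22 and 18 were higher and 4 lower each time. The fit without mutant 15 d array 1 kept wild-type 15 d array 1, which deviated together with it, so that fit is unbalanced between genotypes. The number depended on single arrays. It was 497 without mutant 15 d array 1, 7 without mutant 5 d array 2, 26 and 22 without mutant 15 d arrays 2 and 3, 21 and 22 without wild-type 5 d arrays 1 and 2, and 21 and 24 without wild-type 15 d arrays 2 and 3. Without both arrays that stood apart it was 38, and 19 of these were among the 57.

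The 41 higher differences were mostly falls that were smaller or not called in the mutant. In 13 the probe set fell in both genotypes, in 21 it fell in wild type and was not called in the mutant, in 6 it rose in the mutant and was not called in wild type, and in 1 it rose in both. AT4G01730 showed the largest difference of a named gene, 4.74 (limma adjusted p = 0.0014). It gave 1074 and 1175 at 5 d and 803, 1046 and 1160 at 15 d in the mutant, so the ages overlapped, whereas wild type went from 902 and 1102 to 22.4, 11.1 and 22.2. AT3G10310, AT1G23790 and AT1G72250 behaved alike, with mutant changes of -0.05, -0.56 and -0.35 that were not called against wild-type changes of -3.58, -4.08 and -3.82. AT5G48310 and AT4G15830 fell by 1.01 and 2.97 in mutant leaves, where wild-type leaves fell by 4.51 and 6.44, and the call of AT5G48310 was lost without 5 d array 1 (limma adjusted p = 0.052). COR27, a cold and clock regulated gene, rose in the mutant from 39.3 and 30.8 to 446, 660 and 577 (log2 change 3.94 ± 0.29, limma adjusted p = 2.7e-05). Its wild-type change of 0.60, from 229 and 213 to 256, 336 and 439, was not called, and the difference of 3.34 was (limma adjusted p = 0.016). The young mutant arrays were the ones that lay low.

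Among the 16 lower differences, 9 probe sets rose in both genotypes, and the remaining 7 were a rise called in wild type alone (1), a rise in wild type with a fall in the mutant (2), a fall called in the mutant alone (3) and a fall in both (1). MSRB5, a methionine sulfoxide reductase, rose from 449 and 957 to 6709, 7249 and 6974 in the mutant, a log2 change of 3.41 ± 0.36, and from 86.2 and 43.6 to 7692, 8430 and 9453 in wild type. The mutant arrays lay above those of wild type at 5 d and a little below them at 15 d, and the changes differed by -3.70 (limma adjusted p = 0.022). AT1G65490 read 577 and 719 on the young mutant arrays against 76.5 and 76.4 in wild type, and 3313, 1787 and 2648 on the mature mutant arrays against 4418, 4338 and 4410. The genotypes overlapped at neither age, and the changes differed by -3.88 (limma adjusted p = 0.0049). AT3G56290 rose in wild type by 2.11 and was not called in the mutant, where its change was -0.60. That mutant change was called under 3 of 20 alternatives, among them quantile normalization (-0.71, limma adjusted p = 0.029). AT1G13650, AT4G29690 and EXPB1, a beta-expansin, fell in the mutant by 2.68, 1.94 and 1.31 on the log2 scale from young levels above the floor. They were not called in wild type, where both young arrays were near or under the floor. AT1G13650 and EXPB1 passed the filter only through the young mutant leaves, where they were high. Nearly all their other values were set to the floor, which removes spread, so their called differences are a description only.

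Most tested genes for making RNA and ribosomes fell as the mutant leaf matured, against 27.1% of all probe sets. Of 12 tested subunits of RNA polymerases 8 fell, and the other 4 had negative changes that were not called; without 5 d array 1 the number was 5. In wild type all 12 fell. NRPB9B, a subunit of RNA polymerase II, went from 733 and 754 to 136, 190 and 159, a log2 change of -2.21 ± 0.22 (limma adjusted p = 9e-05). NRPE7 and NRPD7, subunits of the polymerases of RNA-directed DNA methylation, fell by 1.97 and 1.82. Of 10 ribosome biogenesis genes 9 fell, with a median of -1.77. AT5G14520 went from 5867 and 5120 to 918, 1133 and 962, and YAO, a nucleolar protein, from 981 and 815 to 145, 337 and 337. The 2 ages did not overlap in any of these 5 genes.

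Of 4 stomatal lineage genes 3 fell in the mutant and 1 was not called, where 27.1% of all probe sets fell. SPCH, the transcription factor that starts the stomatal lineage, gave 577 and 497 at 5 d and 23.5, 0.567 and 3.78 at 15 d, at least 16.2-fold lower (limma adjusted p = 1.6e-05). MUTE, which ends the asymmetric divisions, fell from 109.5 and 128.3 to 5.16, 0.533 and 1.37, at least 3.59-fold. STOMAGEN, a secreted peptide that promotes stomata, fell at least 31.6-fold, from 2154 and 2100 to 280, 1.84 and 19.6, with array 1 the highest of the mature arrays. FMA, which acts last in the lineage, gave 96.8 and 125 at 5 d and 356, 207 and 157 at 15 d, and this change of 1.04 was not called (limma adjusted p = 0.055). The mutant changes of the 4 genes were 0.38 or less from those of wild type for SPCH, MUTE and STOMAGEN, where no difference was called, and FMA rose in wild type by 1.63.

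Of 17 leaf shape and polarity genes 9 fell and 8 were not called, with a median of -0.88, where 27.1% of all probe sets fell. ULT1, a SAND-domain regulator of meristems, fell at least 23.5-fold from 910 and 659 to 22.5, 29.1 and 26.4. YAB3, of the YABBY family of abaxial cell fate, fell from 1310 and 794 to 225, 115 and 66.6, and NUB, a zinc finger protein of lateral organs, fell at least 7.25-fold. AN, a regulator of leaf cell shape, fell by 0.82, a call lost without 5 d array 1 (limma adjusted p = 0.058), 5 d array 2 (0.15), 15 d array 2 (0.078) or both arrays that stood apart (0.18). The number of falls was 5 without 5 d array 2 or without 15 d array 2, and 6 without 5 d array 1 or 15 d array 3. TRY, a repressor of trichome fate, fell at least 2.34-fold from levels near the floor, a call lost with the floor at 66 (limma adjusted p = 0.24). SIM, an inhibitor of cyclin-dependent kinases that acts in endoreduplicating cells, fell from 331 and 334 to 113, 131 and 171 (log2 change -1.29 ± 0.29, limma adjusted p = 0.0049).

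Hormone genes gave a mixed picture. YUC4, an enzyme of auxin synthesis, fell at least 7.56-fold, from 217 and 286 to 3.48, 0.688 and 4.36, and IAA30, an auxin-response repressor, fell at least 5.68-fold. WES1, which conjugates auxin with amino acids, rose from 185 and 206 to 689, 2406 and 2430 (log2 change 3.03 ± 0.52, limma adjusted p = 0.0013). The other 8 of 11 auxin genes were not called, and the called shares were under the 25.9% of all probe sets that rose and 27.1% that fell. The number of falls was 4 without 5 d array 2. Of 5 gibberellin genes 3 rose, led by the receptor gene GID1B, from 166 and 201 to 755, 950 and 957. GID1A rose by 1.11 and SLY1 by 0.82 on the log2 scale, and both calls were lost without 5 d array 1 (limma adjusted p = 0.12 and 0.13), that of SLY1 also without 5 d array 2 (0.051), 15 d array 3 (0.052) or both arrays that stood apart (0.067).

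Of 19 expansin and XTH genes, which loosen or rebuild the wall, 7 rose and 7 fell, where 25.9% and 27.1% of all probe sets did. XTH19 rose from 1.31 and 282 to 3880, 5453 and 3569, a log2 change of 5.45 ± 0.83 (limma adjusted p = 6.9e-04). EXLB1, an expansin-like gene, rose from 7.58 and 47.1 to 2473, 554 and 549. XTH16 went the other way, from 1198 and 1274 to 78.3, 85.8 and 134, a change of -3.68 ± 0.33 (limma adjusted p = 5.9e-05), and EXPB3 fell by 3.63. The rise of EXLA1, 5.46 on the log2 scale, and the fall of XTH32, -2.99, were each called (limma adjusted p = 0.0053 and 0.0071) and lost without 5 d array 1 (0.058 for both). Without 5 d array 1 there were 4 rises and 6 falls.

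The pectin methylesterase genes PMEPCRF and ATPMEPCRB rose by 4.09 and 3.46. Of 14 TBL genes, a family that adds acetyl groups to wall polysaccharides, 3 rose and 3 fell, no larger a share than the 25.9% and 27.1% of all probe sets. TBL37 rose from 458 and 653 to 2802, 3700 and 3537 and TBL38 by 2.28, and the falls of TBL45, TBL28 and TBL35 were all lost without 5 d array 2 (limma adjusted p = 0.17, 0.11 and 0.055). Those of TBL45 and TBL28 were also lost without 5 d array 1 (0.14 and 0.073), 15 d array 2 (0.12 and 0.056) or 15 d array 3 (0.12 and 0.057), and those of TBL28 and TBL35 without both arrays that stood apart (0.059 and 0.065). Of 8 GH9 cellulase genes 3 fell and 1 rose, where 27.1% and 25.9% of all probe sets did. GH9B13 led them and fell at least 8.78-fold, from 288 and 292 to 12.4, 1.64 and 3.71. Leaving out 5 d array 2 left 1 fall and no rise among the 8.

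Among genes of the cytoskeleton, TUA6 and TUB7, an alpha- and a beta-tubulin, fell from 8751 and 7699 to 3985, 3154 and 3503 and from 3476 and 3644 to 1110, 935 and 908. TUA1 rose from 200 and 262 to 619, 613 and 744. The fall of TUB5 (limma adjusted p = 0.041) rested on 15 d arrays 2 and 3, at 120 and 165 against 1085 on array 1. Its adjusted p was 0.12 without 15 d array 2, 0.11 without 15 d array 3, and 0.16 and 0.14 without 5 d arrays 1 and 2. In all, 3 of 7 tubulins fell and 1 rose, where 27.1% and 25.9% of all probe sets did. Of 13 IQD genes, which encode calmodulin-binding proteins on microtubules, 5 fell, where 27.1% of all probe sets did. IQD26 fell at least 7.38-fold from 254 and 234 to 7.19, 4.83 and 3.65. Without 15 d array 2 or 5 d array 2, 3 of the 13 fell. Of 11 TRM genes 3 rose and 2 fell, again near the shares over all probe sets, led by TRM22, from 511 and 518 to 26.2, 70.3 and 92.6, and by TRM15, which rose by 1.86; without 5 d array 1 there were 2 rises and 1 fall, and without 5 d array 2 there were 3 and 1, TRM20 being lost in both (limma adjusted p = 0.052 and 0.1).

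**Figure D4:**
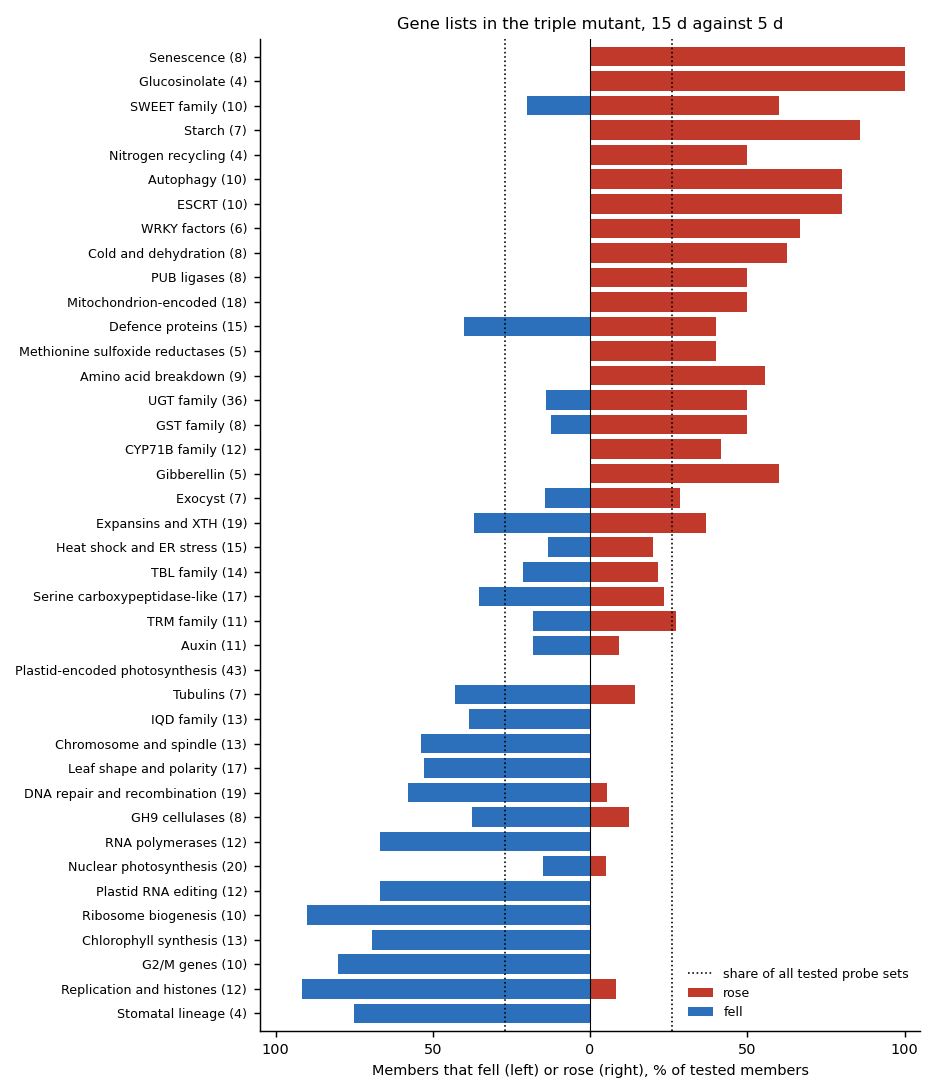
Share of tested members of each gene list that fell (blue, left) or rose (red, right) in the triple mutant from 5 d to 15 d, with the number tested in brackets and lists ordered by their median change. Dotted lines mark the 27.1% of all probe sets that fell and the 25.9% that rose. Replication, ribosome biogenesis, chlorophyll synthesis and plastid RNA editing lists lie mostly on the left, and senescence, autophagy and starch lists on the right. Plastid-encoded photosynthesis has no bar, as no member was called, and 3 of 20 nuclear photosynthesis genes fell.

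Genes of leaf ageing rose in the mutant, against 25.9% of all probe sets. All 8 tested senescence genes rose in both genotypes, with a median log2 change of 4.00 in the mutant, and all 8 calls held when any 1 mutant array was left out. PPDK, an enzyme of nutrient remobilisation in old leaves, gave 15.6 and 202 at 5 d and 4712, 2302 and 3388 at 15 d, a change of 5.35 ± 0.64 (limma adjusted p = 1.9e-04). BETA-VPE and GAMMA-VPE, vacuolar processing proteases, rose from 48.4 and 266 to 3313, 4148 and 4036 and from 276 and 453 to 7138, 4388 and 6046. SAG29, also named SWEET15, rose from 30.1 and 54.7 to 440, 2082 and 1324. WRKY53 and WRKY6, transcription factors of senescence, rose by 3.99 and 3.79, SAG101 by 3.02 and YLS5 by 2.42. The ages did not overlap in any of the 8, and 5 d array 2 was the higher young array in 6 of them. Of 6 WRKY genes in all 4 rose, including WRKY47, by 2.11, and 3 did so without 5 d array 1 or without 5 d array 2.

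Most tested genes of the ATG8 autophagy family and of vesicle sorting to the vacuole rose with age. For the exocyst genes, given last, the called shares lay near or under the 25.9% of all probe sets that rose and 27.1% that fell. Of 10 autophagy genes 8 rose, with a median of 1.59. All of the 10 except ATG3 belong to the ATG8 family, the ubiquitin-like proteins of the autophagosome membrane, so the list describes mainly that family. ATG8B rose from 78.6 and 118 to 765, 848 and 1028 (log2 change 3.18 ± 0.28, limma adjusted p = 5.1e-05), ATG8H from 136 and 237 to 1533, 1271 and 1540, and APG8A by 2.13. ATG8E and ATG3 were not called, with changes of 0.06 and 0.12. Of 10 ESCRT genes, whose products sort membrane proteins to the vacuole, 8 rose. SNF7.1 rose from 217 and 251 to 858, 1453 and 1123, VPS20.1 by 2.25 and VPS60.2 by 2.24. Of 7 exocyst genes, which tether vesicles for secretion, 2 rose and 1 fell, SEC15B rising by 0.80 on the log2 scale; without 5 d array 1, 5 d array 2, 15 d array 2 or 15 d array 3 there was 1 rise and no fall.

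Sugar, starch, amino acid breakdown and nitrogen genes more often rose than fell, where 25.9% of all probe sets rose and 27.1% fell. Some members of each list were not called. Of 10 SWEET genes, which encode sugar transporters, 6 rose and 2 fell, and 4 rose without 5 d array 1. SWEET10 rose from 6.10 and 129 to 1710, 2854 and 2130, a change of 5.06 ± 0.53 (limma adjusted p = 1.1e-04). SWEET16, a vacuolar member, fell from 274 and 268 to 75.5, 17.0 and 37.1, and SWEET1 fell by 1.80 but lost its call without any one of 5 d array 1 (limma adjusted p = 0.095), 5 d array 2 (0.11), 15 d array 2 (0.07) or 15 d array 3 (0.068). Of 7 starch genes 6 rose, and 3 did without either 5 d array. APL3, a subunit of the enzyme that makes ADP-glucose, rose from 115 and 247 to 5566, 2697 and 1968. PWD, a dikinase of starch breakdown, rose from 27.6 and 119 to 4391, 1831 and 795, and a probe set of another locus listed under the same name rose by 1.08 on the log2 scale. AMY1, an alpha-amylase, read 104 on 15 d array 1 but 6358 and 7564 on arrays 2 and 3; its call (limma adjusted p = 0.047) was lost when any of 5 d array 1 (0.22), 5 d array 2 (0.11), 15 d array 2 (0.13) or 15 d array 3 (0.13) was left out. Of 9 amino acid breakdown genes 5 rose, among them ETFALPHA and ETFBETA, the electron transfer flavoprotein, by 1.41 and 1.39. GAT1_2.1, a glutamine amidotransferase, rose from 3.21 and 72.2 to 2582, 1511 and 900 on 1 of its probe sets, while the other stayed at 74.2 or less on the mutant arrays and was not tested, and ALN, allantoinase, by 2.50, a call lost without 5 d array 1 (limma adjusted p = 0.069); they were the 2 of 4 nitrogen recycling genes that rose.

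Among genes of secondary metabolism and detoxification, more were called as rises than as falls, where 25.9% of all probe sets rose and 27.1% fell. Of 36 UGT genes, which attach sugars to small molecules, 18 rose and 5 fell, and without 5 d array 1 the numbers were 11 and 1, without 5 d array 2 they were 12 and 1. UGT84A3 rose from 49.9 and 118 to 1294, 1472 and 1488 (log2 change 4.21 ± 0.41, limma adjusted p = 7.9e-05), and UGT72E1 rose from 42.3 and 96.5 to 2609, 702 and 1330. Of 12 CYP71B cytochrome P450 genes 5 rose, among them CYP71B23, from 6.54 and 145 to 3205, 2617 and 3750. In wild type 10 of the 12 rose, and no difference between genotypes was called. Of 8 GST genes 4 rose and 1 fell, with GSTL3 going from 1279 and 1339 to 10040, 8809 and 7801 and GSTU26 from 267 and 324 to 62.1, 17.8 and 55.1. All 4 glucosinolate genes tested rose. BCAT4, which starts the chain elongation of methionine, rose from 16.4 and 329 to 7117, 5232 and 4399, and GTR2, a glucosinolate transporter, from 155 and 316 to 1538, 2192 and 3078.

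Defence, stress and protein turnover genes moved both ways, where 25.9% of all probe sets rose and 27.1% fell. Of 15 defence proteins 6 rose and 6 fell, and without 5 d array 1 the numbers were 2 and 3. ChiC, a chitinase, rose from 102 and 805 to 12400, 16250 and 15730 (log2 change 5.68 ± 0.75, limma adjusted p = 3.1e-04). OSM34, an osmotin-like protein, read 1.32 and 1020 at 5 d and 1822, 23060 and 19620 at 15 d, and its call (limma adjusted p = 0.028) was lost without 5 d array 1 (0.26), 15 d array 2 (0.078) or 15 d array 3 (0.077). LCR69, a plant defensin, fell from 16040 and 12600 to 1815, 1969 and 1086, and PYK10, a beta-glucosidase of ER bodies, from 5277 and 6645 to 1729, 402 and 724. Of 8 cold and dehydration genes 5 rose, and 2 did without 5 d array 1. COR47, a dehydrin, rose from 757 and 830 to 2965, 4752 and 6294. GI, a clock component, rose by 2.98 in the mutant and 1.99 in wild type.

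Of 15 heat shock and ER stress genes 3 rose and 2 fell, smaller shares than the 25.9% and 27.1% of all probe sets. BZIP60, a transcription factor of the unfolded protein response, rose from 444 and 559 to 2288, 1798 and 2059, and Hop1, a cochaperone, fell from 1331 and 1479 to 413, 435 and 341. Without any one of 5 d array 1, 5 d array 2, 15 d array 2 or 15 d array 3 there was 1 rise. Of 8 PUB ubiquitin ligase genes 4 rose, PUB24 by 3.00 and PUB22 by 1.63. Of 17 serine carboxypeptidase-like genes 4 rose and 6 fell, near the 25.9% and 27.1% of all probe sets; scpl48 rose from 184 and 207 to 1085, 2588 and 5077, and scpl42 fell from 1668 and 2059 to 311, 60.9 and 89.2. Without 5 d array 1 there were 2 rises and 4 falls. Of 5 methionine sulfoxide reductase genes 2 rose, MSRB5 and MSRB9, the latter from 458 and 523 to 1337, 1416 and 1138 with its call lost without 5 d array 1 (limma adjusted p = 0.073) or without both arrays that stood apart (0.06).

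Plastid genes were the group in which the mature mutant arrays disagreed most. Of 20 nuclear photosynthesis genes 3 fell, 1 rose and 16 were not called, with a median of -1.50, against 0.35 in wild type. Both called shares were under the 27.1% of all probe sets that fell and 25.9% that rose. The mean log2 signal of the 20 genes was 12.08 and 11.84 at 5 d and 12.24, 9.62 and 10.00 at 15 d, so array 1 lay above the young arrays and arrays 2 and 3 far below them. Without 15 d array 1, 18 of the 20 fell and the median was -2.27, and without both arrays that stood apart 17 fell. In wild type too, array 1 was the highest mature array, at 12.67 against 11.87 and 11.41, with the young arrays at 11.39 and 11.55. RCA, Rubisco activase, shows the pattern: it gave 17430 and 12520 at 5 d and 18630, 2464 and 3187 at 15 d, the ages overlapped, and the change of -1.49 ± 0.77 was not called (limma adjusted p = 0.14). LHCB4.1, an antenna protein of photosystem II, read 14090 and 13570 and then 16420, 3305 and 3787. Without 15 d array 1 both were called as falls (limma adjusted p = 0.0011 and 0.0012), as they were without both arrays that stood apart (0.0066 and 0.011). The 3 called falls, PSB27, SBPASE and AT4G38100, were all lost without 5 d array 1 (limma adjusted p = 0.13, 0.17 and 0.089), and those of PSB27 and SBPASE were also lost without 5 d array 2 (0.14 and 0.15), 15 d array 2 (0.097 and 0.13) or 15 d array 3 (0.091 and 0.13). PGRL1B, a factor of cyclic electron flow, rose on every mature array, from 282 and 259 to 1315, 1084 and 893 (log2 change 2.00 ± 0.21, limma adjusted p = 1.2e-04). What sets array 1 apart was not tested.

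Genes of chlorophyll synthesis fell on all 3 mature mutant arrays, to different depths. Of 13 genes 9 fell, with a median of -1.80, against 27.1% of all probe sets. In wild type 7 fell, against 27.3% of all probe sets. HEME1, uroporphyrinogen decarboxylase, went from 3153 and 3143 to 381, 173 and 241, a log2 change of -3.65 ± 0.40 (limma adjusted p = 1.3e-04). CHLI2, a subunit of magnesium chelatase, went from 2127 and 1874 to 549, 53.4 and 58.7, and CHLM, the methyltransferase of the next step, from 7582 and 7184 to 3097, 278 and 372. The ages did not overlap in these 3 genes, but in CHLI2 and CHLM array 1 lay far above arrays 2 and 3. Calls of CHLI2 and CHLM were lost without 5 d array 1 (limma adjusted p = 0.057 and 0.099), and that of CHLM also without 5 d array 2 (0.088), 15 d array 2 (0.059) or 15 d array 3 (0.06). The number of falls was 4 without 5 d array 1 and 6 without 5 d array 2, 15 d array 2 or 15 d array 3.

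**Figure D5:**
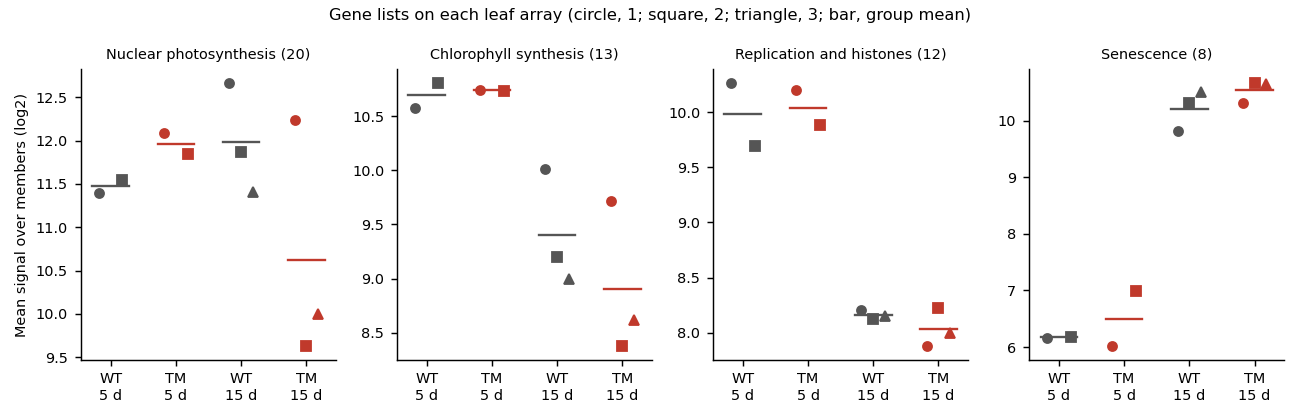
Mean log2 signal over the members of 4 gene lists on each leaf array, wild type in grey and triple mutant in red, with symbols for arrays 1 (circle), 2 (square) and 3 (triangle) and bars for group means. At 15 d the red circle of nuclear photosynthesis, 12.24, lies far above the red square and triangle, 9.62 and 10.00, whereas replication and senescence lists separate the ages on every array.

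Plastid RNA editing factors, nuclear proteins that correct plastid transcripts, fell in 8 of 12 cases. Of all probe sets 27.1% fell and 25.9% rose. OTP81 went from 514 and 488 to 83.5, 108 and 120 (log2 change -2.29 ± 0.24, limma adjusted p = 1.1e-04), and CRR22 and CRR28 fell by 2.53 and 2.51. Without 5 d array 2, 15 d array 2 or 15 d array 3, 5 of the 12 fell. None of the 69 plastid-encoded probe sets was called in the mutant by limma, and 2 passed an unadjusted p under 0.05. Their precision was low, with a median SE of 1.03 on the log2 scale against 0.33 over all tested probe sets. psbM, of photosystem II, read 23260 and 20950 at 5 d and 12830, 21410 and 17950 at 15 d. Of 18 mitochondrion-encoded probe sets 9 rose, led by cox1, a subunit of cytochrome oxidase, from 32.3 and 199 to 390, 448 and 1026 (log2 change 2.80 ± 0.80, limma adjusted p = 0.016). That count was 2 without 5 d array 1 and 6 without 15 d array 3, and the call of cox1 was then lost in both cases (0.17 and 0.052).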

How the data were processed

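RNA of first leaf pairs was measured on Affymetrix ATH1 arrays. The deposited values are signal intensity per probe set, made by the authors with MAS5 per the submitters' processing notes (no version is stated there) and scaled alike, since every leaf array has a trimmed mean between 500.04 and 500.06. Values under 33 were set to 33 and log2 was taken. On a leaf array 25.7 to 35.1% of probe sets lay under this floor, so folds of low genes are understated. A group wholly under the floor adds no spread, so p-values of genes that reach the floor can be too small. The 64 control probe sets and those not above 33 on every array of at least 1 leaf group were left out, which kept 16566 of 22810. Of these 9155 have exactly 1 gene in the platform annotation and 1279 a symbol other than a locus number. The number of arrays limits the precision.

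limma 3.58.1 (R 4.3.3) fitted a mean per group to the 10 leaf arrays, with a variance trend and 6 residual degrees of freedom. It tested 15 d against 5 d in the triple mutant, the same in wild type, and the difference of these changes, with Benjamini-Hochberg adjustment over all tested probe sets and a threshold of 0.05. The fit was tested on simulated data with known changes. Figures were drawn with matplotlib 3.10.9.

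Arrays of the same number and age deviated together across genotypes, with correlations of 0.727, 0.602 and 0.568 at 15 d and 0.481 at 5 d. At 15 d, arrays of unlike number correlated at -0.665 to 0.423. With 2 arrays a group, the 5 d value could only be 0.481 or -0.481. The numbers may thus pair genotypes at 15 d, while at 5 d this cannot be told. The main fit did not pair arrays. Across ages, same-numbered mutant arrays correlated at 0.116 and -0.0847. The alternatives were another floor, no floor, other filters, quantile normalization, replicate blocks, a variance prior without a trend, the mutant arrays alone, and leaving out arrays.

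The comparison and the gene lists were chosen with earlier results of these data known, and the lists by symbol were made after the annotation's coverage and some values had been seen. Genes were named by a rule: the 10 largest rises and falls whose ages do not overlap and whose higher mean is at least 4 times the floor, the 8 largest differences each way, the 3 largest called members each way of a list, and all G2/M genes. Other list members named in the text were chosen after their values were seen.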

Additional observations from a re-analysis of the deposited data

Results flagged for a closer look

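The change from 5 d to 15 d differed between the triple mutant and wild type, by limma's test of the difference itself, for 16 of the genes named. The difference, mutant minus wild type on the log2 scale, was 4.74 for AT4G01730, 4.21 for 3xHMG-box1, 4.11 for AUR2, 3.53 for AT3G10310, 3.51 for AT1G23790, 3.50 for AT5G48310, 3.47 for both AT1G72250 and AT4G15830, 3.34 for COR27 and 2.93 for KINESIN-12B. It was -3.88 for AT1G65490, -3.70 for MSRB5, -2.71 for AT3G56290, -2.68 for AT1G13650, -1.92 for AT4G29690 and -1.36 for EXPB1. These genes were picked as the largest of the calls or as list members, so the sizes are a description. For AT1G13650 and EXPB1 the call itself is a description too, since they passed the filter only through the young mutant leaves.

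The calls of AT4G01730, AUR2 and AT3G10310 held under every alternative run. Those of AT1G23790, AT5G48310 and AT1G65490 were lost only without mutant 5 d array 2 (adjusted p = 0.067, 0.061 and 0.059), and that of AT1G13650 only without the floor (0.74). The calls of the other 9 genes were lost under between 4 and 13 alternatives each. For MSRB5, AT3G56290, AT4G15830, AT4G29690, COR27, KINESIN-12B, EXPB1, AT1G72250 and 3xHMG-box1 leaving out mutant 5 d array 2 was among them (adjusted p from 0.059 to 0.27).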

How the results depend on the processing

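The numbers of probe sets called with age stayed within 1.5 times under every alternative. Leaving out 1 array gave 6006 to 9590 calls in the triple mutant, 5633 to 8135 of at least 2-fold, 6579 to 9605 in wild type and 5401 to 7473 wild-type calls shared by the mutant. The number of differences between genotypes, 57, was 87 without a filter on low values, 34 with a replicate block across ages and 181 with a replicate block within age, and ranged from 7 to 497 when 1 array was left out; the cause was not tested. Their share of higher differences was 71.9%, against 41.4% with the block within age and 29.6% without mutant 15 d array 1. That share was 84.6% and 81.8% without mutant 15 d arrays 2 and 3. The block within age moved no other count of calls over all probe sets by over 1.5 times. Among single genes it gained the difference of AUR1 and the mutant change of CSLA03, and lost the mutant calls of UGT76C2, TBL26, SCPL34, SEC6, LTI30 and Hop2. Quantile normalization moved the median of all probe sets to -0.12 in the mutant and -0.14 in wild type. Over all alternatives, 3889 values of single genes in the mutant kept direction and side of the threshold, 231 lost the call, 19 gained it and 13 changed sign; of list medians 1158 moved by less than the spread between arrays and 198 by more. The changes of sign were in values that were not called, except UGT71C3 (-0.93), whose change was 0 at the higher floor: AT4G01730, 0.037 without both arrays that stood apart; AT3G10310, 0.29 without both and -0.29 to 0.19 with 1 array left out; atpE, -0.39 without both and -0.21 to 0.90 with 1 array left out; UGT71C3, 0.00 at a floor of 66; AQI, -0.083 to 0.44 with 1 array left out. rps4 was 0.11 after quantile normalization, 0.79 with the block across ages, and -0.66 to 0.32 with 1 array left out. The difference between genotypes ranged from -0.13 to 0.56 for AT1G63100 and from -0.16 to 0.91 for AUR3 with 1 array left out. With 2 young arrays a group, leaving 1 out takes the spread of the lone array from the other groups.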
